A study of Musa acuminata AAA Group with 4 samples.

Results

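UDP-glycosyltransferases are enzymes that move a sugar, most often glucose, from a UDP-sugar onto a small acceptor molecule. In plants they form a large family, and its members glucosylate flavonoids, phenolic acids, coumarins, hormones and defence compounds, which makes these molecules more soluble, more stable and easier to store in the vacuole. Related glucosyltransferases act on sterols, where they make membrane steryl glucosides, and on proteins. The genes described here are those of the authors' deposited tables for leaf or root whose best protein match is named a UDP-glycosyltransferase, UDP-glucosyltransferase or glucosyltransferase, leaving out names with xyloglucan or indole-3-acet. The rule found 32 genes among the 5520 that stand in either table, with 13 in the leaf table (of 1183 genes), 25 in the root table (of 4747 genes) and 6 in both. No gene with a glucosyltransferase name was dropped by the words left out. The choice used names only and no expression value, but a gene is in a table only because the authors found it to differ there, so members that did not differ were not analysed here.

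The plants were seedlings of Cavendish, a triploid dessert banana of the Musa acuminata AAA group, chosen for uniform appearance and height. For 60 days the normal-potassium group received complete Hoagland nutrient solution and the low-potassium group a solution poor in potassium. Messenger RNA of leaves and of roots was sequenced, with 1 library for each tissue and supply, so there are 4 samples, no comparison has a replicate check, and how many plants a sample pooled is not given in the sources used here. Levels are FPKM, fragment counts scaled for gene length, here nearly always a coding length, and for library depth, and where a pair of levels is given the normal-potassium value comes first. A fold is the ratio of the FPKM values of the libraries compared, and its 95% exact (Clopper-Pearson) interval covers counting error only. A gene is called listed in a tissue if it stands in the authors' deposited table for it. The largest FDR among listed genes was 0.000995 (leaf) and 0.000987 (root), and their absolute log2 ratios began at 1.0. Between 4203766 and 4555282 fragments per library were assigned to genes, as computed from the deposited values. In bulk tissue, fewer cells of a type and less RNA per cell cannot be told apart.

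All 32 names are those of predicted Musa proteins found by a database search, most of them ending in "-like" and carried over from enzymes studied in other plants, and no enzyme activity was measured. The deposited KEGG annotation, a separate database match, gave every member a glycosyltransferase as its first match. Its most frequent entry was UGT73C, a subfamily that in Arabidopsis acts on flavonols and brassinosteroids, with 12 of the 32 genes, among them every scopoletin-named member. All 6 members named 7-deoxyloganetin glucosyltransferase were matched there to cyanohydrin beta-glucosyltransferase, the sorghum enzyme that glucosylates a cyanogenic compound, so the name of the acceptor differs between the databases.

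In leaf, nearly the whole set was higher under low potassium. Of the 13 leaf members, 12 were listed as higher and 1 as lower, where 67.4% of all listed leaf genes were higher and 32.6% lower. Their median log2 ratio was 1.59, against 1.32 for all listed leaf genes. The summed level of the 13 genes was 159 FPKM in normal and 537 FPKM in low potassium, a 3.37-fold difference (interval 3.12 to 3.64). Of the 13, 6 were at least 4-fold apart, where 34.8% of all listed leaf genes were. Of these 5 were higher (26.5% of all listed leaf genes were at least 4-fold higher) and 1 lower (8.37%). With 1 FPKM added to both values, 12 members were at least 2-fold higher (64.5% of listed genes) and 1 at least 2-fold lower (29.1%).

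In root the set was divided. Of the 25 root members, 12 were listed as higher and 13 as lower, where 40.4% of all listed root genes were higher and 59.6% were lower. The summed level was 623 FPKM in normal and 608 FPKM in low potassium, a ratio of 0.977 whose interval (0.933 to 1.02) includes 1. That interval is of the pooled counts, scaled to the ratio of the FPKM sums. With depth-scaled counts in place of FPKM the ratio was 0.937, for which no interval was computed. The same 25 genes made up both sums, but in different shares. The 12 higher genes together had 187 FPKM in normal and 498 FPKM in low potassium, 2.67-fold higher (interval 2.49 to 2.86). The 13 lower genes together had 436 and 110 FPKM, 3.96-fold lower (interval 3.65 to 4.30). These genes were listed and divided by the same ratios, so the directions of the 2 sums were fixed in advance and only their sizes are described. The members' median log2 ratio was -1.0 beside -1.20 for all listed root genes, but it lies at the edge between the higher and lower genes. It turned to 1.09 when the 11 members below the median FPKM of listed root genes were left out. Of the 25 members 14 were at least 4-fold apart, where 39% of all listed root genes were. Of these 5 were higher (14.6% of all listed root genes were at least 4-fold higher) and 9 lower (24.4%). With 1 FPKM added to both values 8 members were at least 4-fold apart, 11 were at least 2-fold higher (38.3% of listed genes) and 12 at least 2-fold lower (56.7%).

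**Figure D1:**
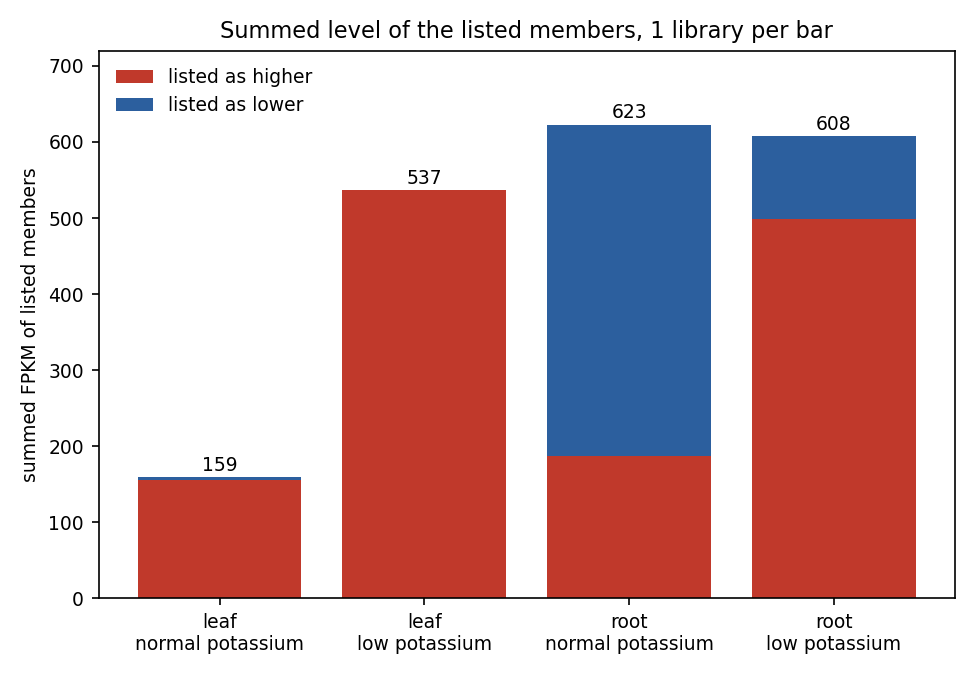
Summed FPKM of the listed members in each of the 4 libraries (vertical axis from 0), divided into members listed as higher (red) and as lower (blue) in low potassium of that tissue. In leaf the sum is 159 in normal and 537 in low potassium, while in root the sums of 623 and 608 come from the same genes in different shares.

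The members with the largest ratios among the lower ones in root were named after scopoletin glucosyltransferase, an enzyme known from tobacco that glucosylates the defence coumarin scopoletin. All 4 scopoletin-named genes of the root table were lower, where 59.6% of all listed root genes were. They belong to a wider group named for coumarins, phenolic acids or crocetin, in which 3 root genes were higher and 4 lower, with 224 and 142 FPKM summed. Ma00_g00080 measured 51.6 FPKM in normal and 5.13 FPKM in low potassium, 10.1-fold lower (interval 6.99 to 14.9). Ma00_g00070, whose locus number is the next one, had levels of 38.5 and 4.11 FPKM, a 9.37-fold lower value in low potassium (interval 6.09 to 15.1). Ma03_g31760 had levels of 53.0 and 6.88 FPKM, a 7.71-fold lower value in low potassium (interval 5.58 to 10.9). In normal-potassium root these 3 genes stood among the more abundant members, and in low potassium each had a lower level than the median member. Ma06_g28780 shares its best protein match with Ma00_g00070 and differed less, with 40.8 and 13.3 FPKM, 3.08-fold lower (interval 2.40 to 3.99). The counts of all 4 are whole numbers. In leaf a further scopoletin-named gene, Ma07_g27110, had the opposite direction, with 20.6 FPKM in normal and 61.9 FPKM in low potassium, 3.0-fold higher (interval 2.47 to 3.67). None of the 4 root genes is listed in leaf, and Ma07_g27110 is not listed in root, so no scopoletin-named gene can be followed through both tissues.

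The members named after 7-deoxyloganetin glucosyltransferase, an iridoid enzyme studied in gardenia, went both ways in root. Ma08_g24150 measured 17.1 and 74.7 FPKM and was 4.37-fold higher (interval 3.54 to 5.42). Ma08_g17530, the most abundant of them in normal potassium, had 33.4 and 75.1 FPKM (2.25-fold higher, interval 1.78 to 2.86), and Ma10_g19150 had 15.9 and 35.6 FPKM (2.24-fold higher, interval 1.76 to 2.85). The lower ones included Ma03_g06440 and Ma03_g06470, which lie 3 locus numbers apart. They had 22.1 and 3.26 FPKM (6.77-fold lower, interval 4.23 to 11.4) and 16.6 and 2.95 FPKM (5.63-fold lower, interval 3.40 to 9.87). Both copies had a like level in each library. The last, Ma08_g17340, measured 6.62 and 1.33 FPKM, 4.98-fold lower from 42 and 8 fragments (interval 2.31 to 12.3). With 3 higher and 3 lower, the 6 genes had 112 FPKM in normal and 193 FPKM in low potassium together. Over all listed root genes 40.4% were higher and 59.6% lower.

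In leaf the 3 listed 7-deoxyloganetin-named genes were all higher, where 67.4% of all listed leaf genes were. They included the most abundant member of the leaf set. Ma08_g17530 measured 36.8 FPKM in normal and 148 FPKM in low potassium, 4.03-fold higher (interval 3.27 to 5.0), and held 23.1% and 27.6% of the summed FPKM of the 13 leaf members. Without it the leaf sum was still 3.17-fold higher. Its coding length is short, 750 bases, and its best match is a partial protein. Ma10_g19150 had levels of 3.92 and 24.6 FPKM, a 6.27-fold higher value in low potassium (interval 4.06 to 10.1). Ma08_g17340 measured 0.17 and 3.25 FPKM, a ratio of 19.1 that rests on 1 fragment in normal and 19 in low potassium and has an interval from 3.04 to 794.

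**Figure D2:**
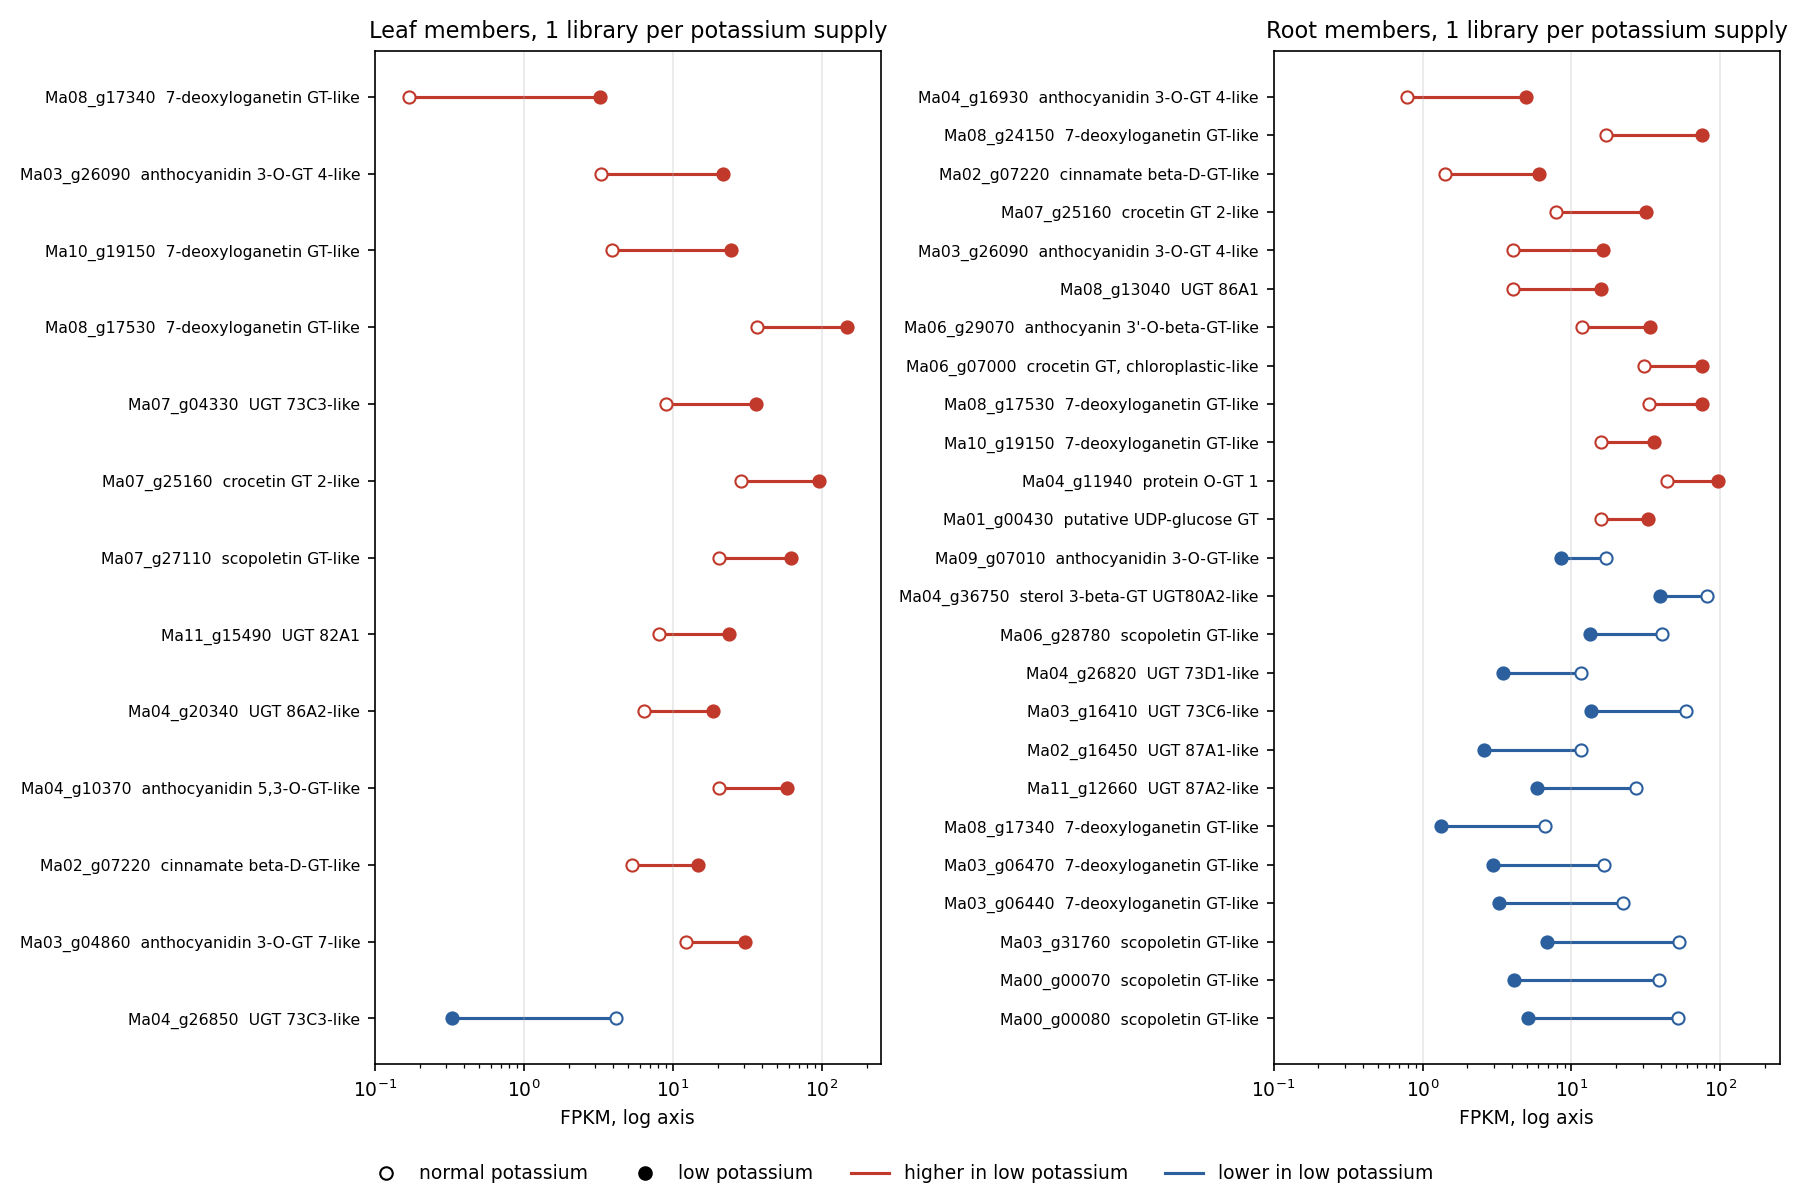
FPKM (log axis) of each member in normal potassium (open circles) and low potassium (filled circles), with 1 library per point, 13 members in leaf and 25 in root, ordered by log2 ratio. In leaf only Ma04_g26850 has its low-potassium point to the left, and in root the scopoletin-named genes Ma00_g00080, Ma00_g00070 and Ma03_g31760 span the widest distance among the lower members.

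Flavonoid-named members, called after enzymes that glucosylate anthocyanidins and related pigments, were higher for 3 of 3 in leaf and 3 of 4 in root. Over all listed genes 67.4% and 40.4% were higher. The higher root genes, Ma04_g16930, Ma03_g26090 and Ma06_g29070, have UGT73C as first KEGG match and not an anthocyanidin enzyme. In leaf the summed level of the flavonoid-named members was 36.1 FPKM in normal and 110 FPKM in low potassium. Ma04_g10370, named after anthocyanidin 5,3-O-glucosyltransferase, an enzyme of rose petals, had 20.5 FPKM in normal and 58.1 FPKM in low potassium, which is 2.84-fold higher (2.31 to 3.51). Ma03_g04860, named anthocyanidin 3-O-glucosyltransferase 7, had levels of 12.3 and 30.4 FPKM, a 2.48-fold higher value in low potassium (interval 1.87 to 3.32). Ma03_g26090, named anthocyanidin 3-O-glucosyltransferase 4, had levels of 3.31 and 21.7 FPKM, a 6.56-fold higher value in low potassium (interval 3.85 to 11.9). This gene was also higher in root, with 4.02 and 16.2 FPKM, 4.03-fold (interval 2.47 to 6.87). Its copy Ma04_g16930, with the same best match, had the largest ratio among the higher root members, 6.24 (0.79 and 4.93 FPKM), from 4.21 and 24.9 estimated fragments (interval 2.15 to 24.7). Neither copy has whole counts. Whether fragments were shared between them was not tested, and their values are uncertain for that reason. Their shared best match is flagged as a low-quality protein model, as is that of Ma10_g19150.

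The other flavonoid-named genes of root differed in direction. Ma06_g29070, named after an anthocyanin 3'-O-beta-glucosyltransferase studied in gentian, had levels of 11.8 and 33.4 FPKM, a 2.84-fold higher value in low potassium (interval 2.17 to 3.76). Ma09_g07010, named anthocyanidin 3-O-glucosyltransferase, had levels of 17.01 and 8.48 FPKM, a 2.01-fold lower value in low potassium (interval 1.42 to 2.87). With a log2 ratio of -1.0 this gene lies just inside the authors' limit.

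The 3 higher root genes of the coumarin, phenolic acid and crocetin group are those named for crocetin and cinnamate, a division made after their values were seen. In leaf all 3 genes of that group, the scopoletin-named Ma07_g27110 included, were higher. Over all listed genes 40.4% were higher in root and 67.4% in leaf. Crocetin glucosyltransferases of saffron and gardenia glucosylate a carotenoid-derived pigment. Ma07_g25160, named crocetin glucosyltransferase 2, had 28.9 and 95.3 FPKM in leaf (3.29-fold higher, interval 2.78 to 3.92) and 7.82 and 31.8 FPKM in root (4.06-fold higher, interval 2.97 to 5.64). Its KEGG match is the pathogen-inducible salicylic acid glucosyltransferase, an enzyme known from tobacco. Ma06_g07000, named crocetin glucosyltransferase, chloroplastic, had levels of 30.6 and 75.3 FPKM in root, a 2.46-fold higher value in low potassium (interval 2.07 to 2.93). The cinnamate beta-D-glucosyltransferase gene Ma02_g07220, named after a strawberry enzyme that makes a glucose ester of cinnamic acid, had 5.36 and 14.7 FPKM in leaf (2.75-fold higher, interval 1.81 to 4.26). In root it had 1.42 and 6.01 FPKM (4.23-fold higher, interval 2.0 to 9.99). The putative UDP-glucose glucosyltransferase Ma01_g00430, whose KEGG match is limonoid glucosyltransferase as for Ma02_g07220, had levels of 15.9 and 32.6 FPKM in root, a 2.05-fold higher value in low potassium (interval 1.61 to 2.63).

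Members known only by a family number were 9 of the 32 genes. In leaf 3 of 4 were higher, near the 67.4% of all listed leaf genes. Ma07_g04330, named UDP-glycosyltransferase 73C3, had 9 and 36.2 FPKM (4.02-fold higher, interval 2.99 to 5.49). Ma11_g15490, named 82A1, measured 8.04 and 23.7 FPKM (2.95-fold, interval 2.14 to 4.13), and Ma04_g20340, named 86A2, measured 6.39 and 18.6 FPKM (2.91-fold, interval 2.01 to 4.31). The 1 lower leaf member, Ma04_g26850, a partial match also named 73C3, measured 4.15 and 0.33 FPKM from 23.2 and 1.80 estimated fragments, 12.6-fold lower with an interval from 3.11 to 110. Its counts are not whole.

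In root 4 of the 5 numbered members were lower, where 59.6% of all listed root genes were. Ma03_g16410, named 73C6 after an Arabidopsis enzyme that glucosylates flavonols, was the most abundant of these, with 58.8 FPKM in normal and 13.6 FPKM in low potassium, 4.34-fold lower (interval 3.41 to 5.57). Ma11_g12660 and Ma02_g16450 are named 87A2 and 87A1. UGT87A2 of Arabidopsis is known for a part in flowering time and in stress tolerance. They had 26.9 and 5.89 FPKM (4.57-fold lower, interval 3.14 to 6.82) and 11.5 and 2.57 FPKM (4.48-fold lower, interval 2.54 to 8.43). Ma04_g26820, named 73D1, lies 3 locus numbers from the lower leaf gene Ma04_g26850 and had levels of 11.6 and 3.49 FPKM, a 3.32-fold lower value in low potassium (interval 1.97 to 5.84). The 1 higher numbered gene, Ma08_g13040, named 86A1, had levels of 4.02 and 15.9 FPKM, a 3.94-fold higher value in low potassium (interval 2.54 to 6.34).

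The remaining root members are not enzymes of small phenolic molecules by name, and they were the most abundant member in each direction. Ma04_g36750, named sterol 3-beta-glucosyltransferase UGT80A2 after the Arabidopsis enzyme that makes steryl glucosides, had levels of 81.1 and 39.3 FPKM, a 2.06-fold lower value in low potassium (interval 1.79 to 2.38). Ma04_g11940, named protein O-glucosyltransferase 1 after an animal enzyme that adds glucose to secreted and membrane proteins, had levels of 44.0 and 96.7 FPKM, a 2.20-fold higher value in low potassium (interval 1.92 to 2.53). Without Ma04_g11940, which has the highest mean level, the root sum was 0.884 of its normal-potassium level. Without both, 11 members remained higher and 12 lower.

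**Figure D3:**
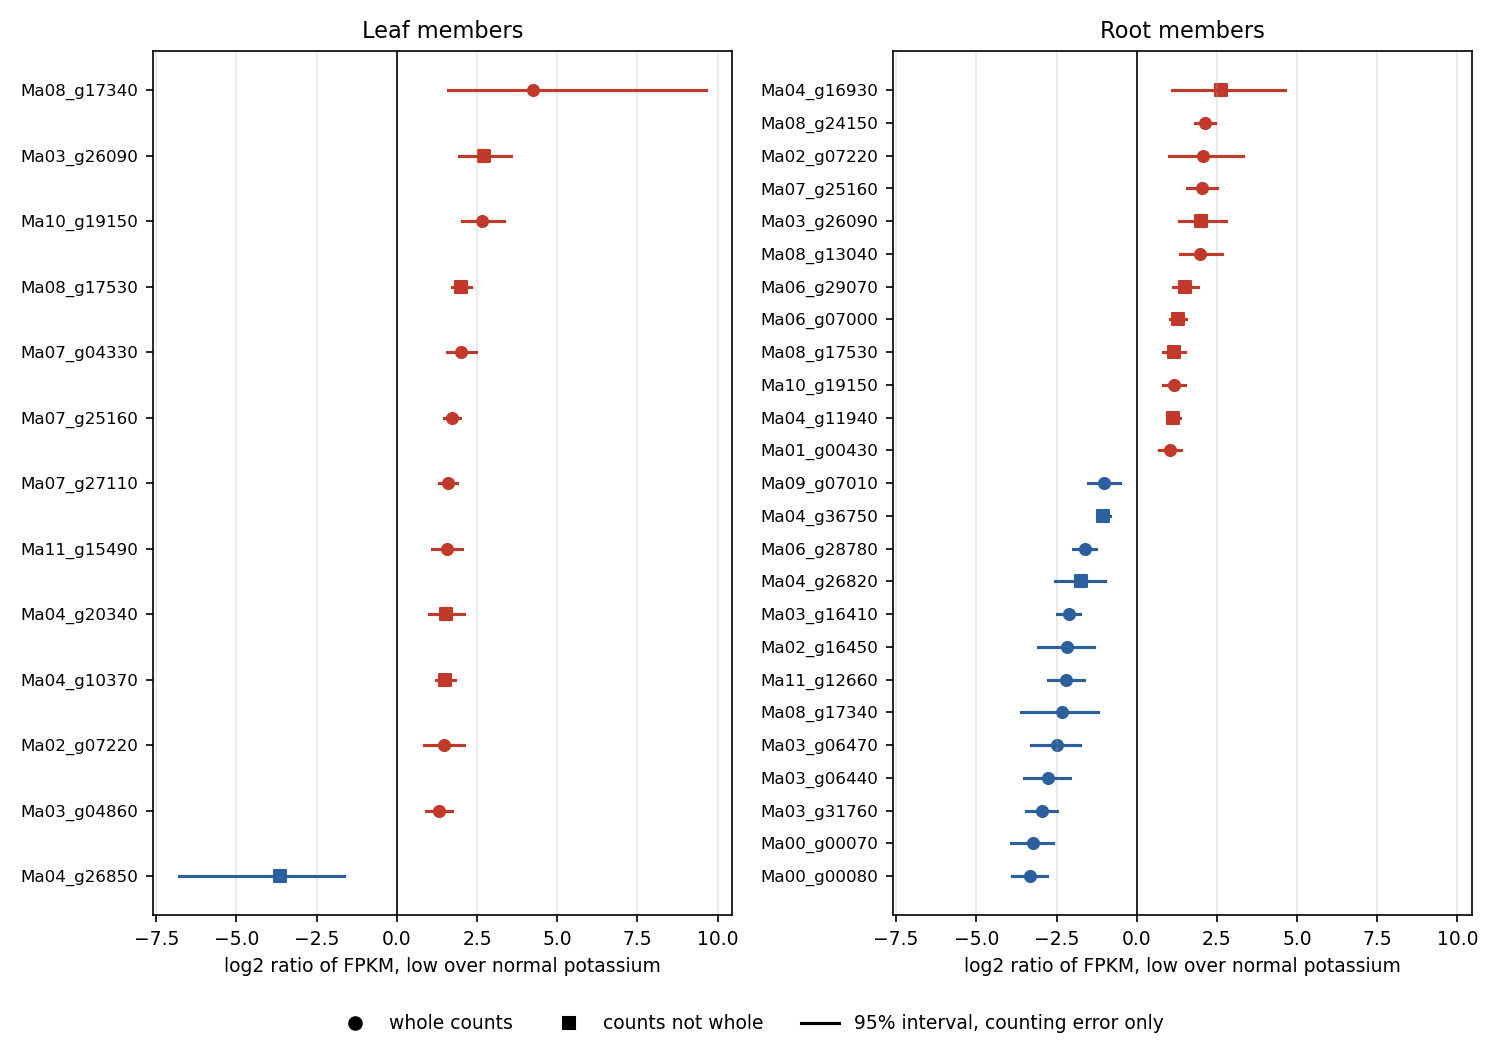
Log2 ratio of FPKM, low over normal potassium, for each leaf and root member. Lines are 95% intervals that cover counting error only, circles are members with whole counts and squares those without. Every interval leaves out 0, which follows from the choice of genes, since the authors listed them as differing in these same libraries. The intervals of Ma08_g17340 and Ma04_g26850 in leaf are the widest, and 5 leaf and 8 root members have counts that are not whole.

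Of the 17 root members with whole counts 6 were higher and 11 lower, where 56.5% of listed root genes with whole counts were lower. Of the 8 without, 6 were higher and 2 lower, where 36.4% of listed root genes without whole counts were higher. With whole counts alone the summed root level was 0.650 of that in normal potassium and the median log2 ratio was -2.12. The near-equal root sums depend on members without whole counts. In leaf all 8 members with whole counts were higher, where 68.2% of listed leaf genes with whole counts were.

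The 6 members listed in both tissues were 46.2% of the leaf members and 24.0% of the root members. Over all genes, the 410 listed in both were 34.7% of the leaf table and 8.64% of the root table. The leaf and root comparisons share no library. In 5 of the 6 the direction was the same, higher in both tissues, where 72.9% of those 410 genes had the same direction. These 5 were Ma02_g07220, Ma03_g26090, Ma07_g25160, Ma08_g17530 and Ma10_g19150, with ratios from 2.24 to 6.56. The exception was Ma08_g17340, higher in leaf and lower in root, a combination that 19.8% of the genes listed in both tables had.

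Levels of these 6 genes in leaf and root come from separate deposited tables, and whether the authors normalized the tissues together is not given. In normal potassium Ma07_g25160 and Ma02_g07220 were 3.70-fold and 3.77-fold more abundant in leaf, Ma10_g19150 was 4.06-fold more abundant in root, and Ma08_g17530 and Ma03_g26090 differed between the tissues by at most 1.21-fold. Ma08_g17340 had 0.17 FPKM in leaf, from 1 fragment, and 6.62 FPKM in root. In low potassium the order of that gene was turned round, with 3.25 FPKM in leaf and 1.33 FPKM in root. The order of the tissues in low potassium was the same as in normal potassium for Ma07_g25160, Ma02_g07220, Ma10_g19150 and Ma08_g17530, and Ma03_g26090 passed from 1.21-fold more abundant in root to 1.34-fold more abundant in leaf.

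**Figure D4:**
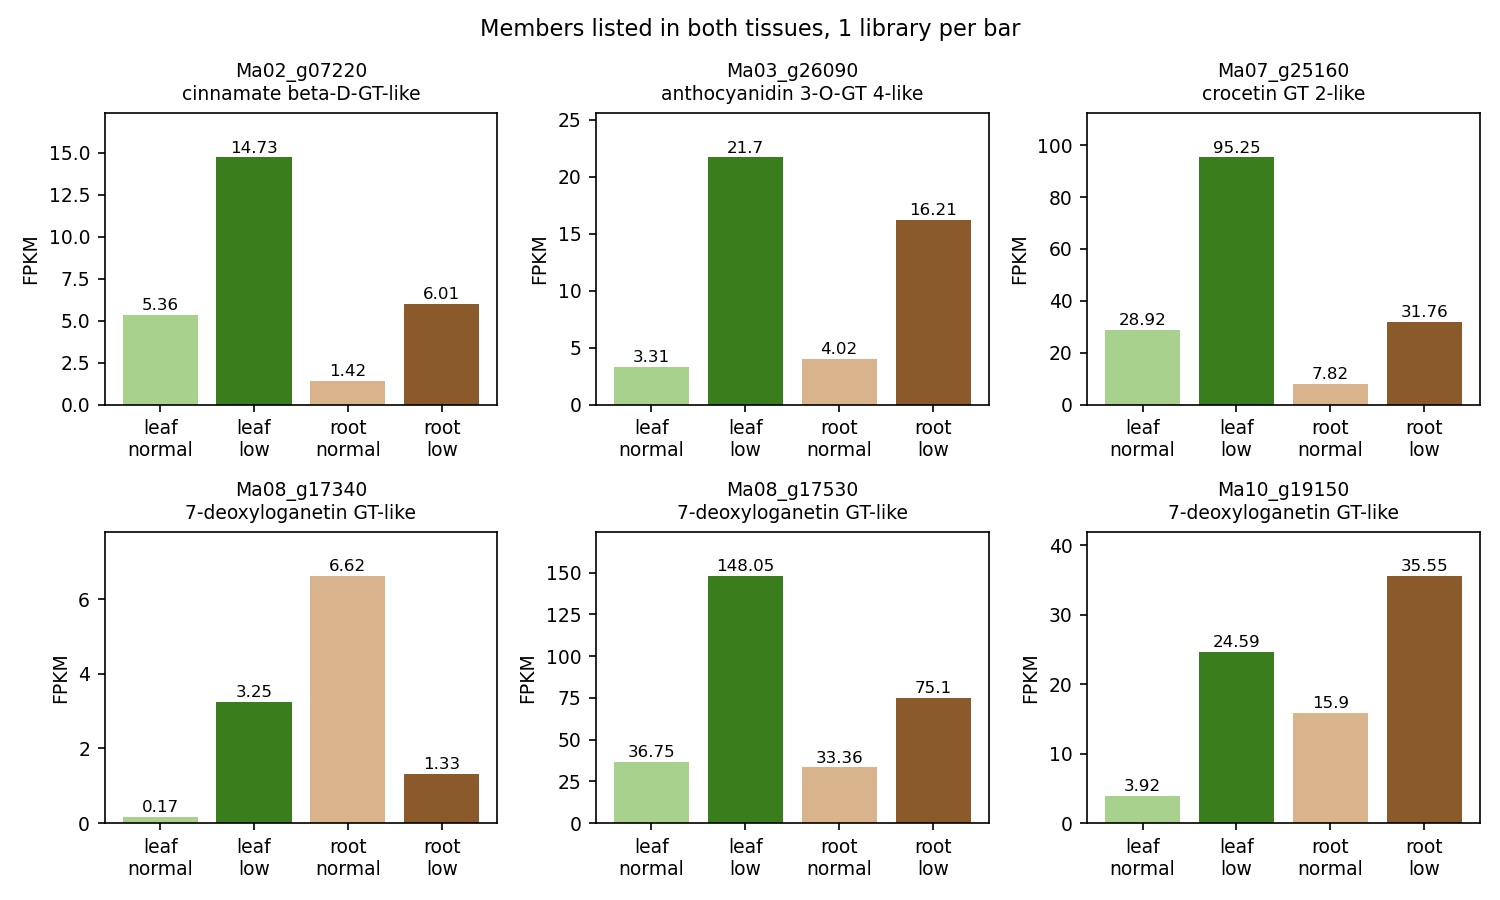
FPKM of the 6 members listed in both tissues, with 1 library per bar and axes from 0 that differ between panels. In 5 panels the low-potassium bar is the taller in leaf and in root, and in that of Ma08_g17340 it is taller in leaf (0.17 and 3.25) and shorter in root (6.62 and 1.33).

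Genes named for enzymes that make or convert UDP-sugars were, in root, mostly lower. Many root genes of this list are named for steps other than making UDP-glucose, such as UDP-glucose 6-dehydrogenase and rhamnose biosynthetic enzymes. Of the 23 listed root genes of that list, 20 were lower and 3 higher (59.6% of all listed root genes were lower). Their median log2 ratio was -1.98 beside -1.20 for all listed root genes. The list's words also took in 3 xylan glucuronosyltransferases, which use UDP-sugars, and without them 18 of 20 were lower. Sucrose synthase, which makes UDP-glucose from sucrose, was the most abundant, with Ma02_g23730 at 2486 FPKM in normal and 1197 FPKM in low potassium (2.08-fold lower). In leaf all 6 listed genes were higher (67.4% over all listed leaf genes), among them the same Ma02_g23730 at 7.92 and 17.7 FPKM. Their median log2 ratio of 1.11 was below the 1.32 of all listed leaf genes. The UDP-glucose epimerase gene Ma06_g23280, which interconverts UDP-glucose and UDP-galactose, was higher in both tissues, 2.05-fold in leaf (43.4 and 89.0 FPKM) and 5.17-fold in root (10.1 and 52.1 FPKM).

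Beta-glucosidases, which take glucose off such products, were lower for 26 of 34 listed root genes (59.6% over all listed root genes) and higher for all 7 leaf genes (67.4% over all listed leaf genes). Most of these, by name, are endo-1,3-beta-glucosidases, which cut wall polysaccharide. Without them 6 of 9 were lower in root, near the share over all listed genes, and both leaf genes were higher. Beta-glucosidase 13 (Ma09_g07510) had 1027 FPKM in normal and 81.1 FPKM in low potassium root, 12.7-fold lower (interval 11.6 to 13.8). Beta-glucosidase 1 (Ma03_g30760) was 3.74-fold lower in root (189 and 50.6 FPKM) and 2.12-fold higher in leaf (8.21 and 17.4 FPKM).

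Genes named after enzymes that make the acceptors were more often higher in root than the table as a whole. Several of the higher genes, and Ma11_g05970 among the lower, are named only 4-coumarate--CoA ligase-like. Whether these act in the pathway was not tested. They are included in the counts that follow, and no count without them was made. Of 17 listed phenylpropanoid and flavonoid genes in root 11 were higher and 6 lower, where 40.4% of all listed root genes were higher, and their median log2 ratio was 1.38 beside -1.20 for all. Of 4 in leaf 2 were higher and 2 lower, where 67.4% of all listed leaf genes were higher. In root the phenylalanine ammonia-lyase gene Ma05_g03720, of the first step of the phenylpropanoid pathway, measured 93.6 and 453 FPKM, 4.84-fold higher, while another, Ma11_g21180, measured 218 and 97.3 FPKM, 2.24-fold lower. The flavonoid 3',5'-hydroxylase gene Ma11_g14250, of anthocyanin synthesis, was 2.89-fold higher in root (117 and 338 FPKM) and 2.64-fold lower in leaf (9.73 and 3.69 FPKM). Of the 6 root genes whose names mark acyltransferases of glucosides or carboxypeptidase-like proteins, some of which act as such acyltransferases, 3 were higher and 3 lower. Phenolic glucoside malonyltransferase (Ma04_g23010), which adds malonate to glucosides, was 36.7-fold lower, from 117 to 3 fragments. Other glycosyltransferases were lower for 43 of 54 in root, beside 59.6% of all listed root genes, and higher for all 9 in leaf, beside 67.4% of all listed leaf genes.

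Markers of green tissue moved with the potassium groups. All 7 listed leaf markers, chlorophyll-binding, photosystem and Rubisco small subunit genes, were higher in low potassium (67.4% over all listed leaf genes), with a summed level of 375 and 1037 FPKM. Their median log2 ratio of 1.43 was near the 1.32 of all listed leaf genes. All 3 listed in root were higher too (40.4% over all listed root genes), with 16.7 and 81.2 FPKM summed. Markers chosen for root tissue were also higher, with 3 listed in root, among them Casparian strip proteins (summed 7.27 and 49.5 FPKM), and 1 nicotianamine synthase gene in leaf (0.51 and 13.8 FPKM). No listed marker was at 0 in any library, and markers outside the tables were not analysed. Their part in the members' values was not tested.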

How the data were processed

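The authors deposited 1 table per tissue, and per the file headers each gives gene length, an expression value and FPKM per sample, a log2 ratio, a p-value and an FDR. Estimated counts of fragments are what the deposited expression columns hold, and 33.8% to 38.1% of those of a library are off a whole number by more than 0.001. The deposited FPKM values are scaled by the authors for length and depth and are 0.001 where the count is 0. The deposited log2 ratio equals that of the FPKM columns. No source used here names the aligner, counter, build or test behind the deposited p-value.

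With Python 3.11.15 and scipy 1.17.1, depth was taken as the slope of count over FPKM on gene length (genes above 100 fragments and 5 FPKM, within 1% of the line). Each fold is the FPKM ratio, and its 95% exact binomial interval comes from rounded counts. The interval and depth steps were tested on simulated counts that held counting error only. No genes were chosen there by fold or FDR, so that test does not cover the effect of the authors' choice of genes. With 1 library per group no test was run. Each leaf member was named. In root the rule named members listed in leaf, the 12 largest log2 ratios each way with 1 FPKM added, and the 5 most abundant each way; Ma09_g07010 was named within its acceptor group. Members and gene lists were chosen with earlier results of these data known. The groups for 7-deoxyloganetin, for anthocyanin and for members without an acceptor were added after the names were seen, as were the lists without endo-1,3 and xylan enzymes. Alternatives were a minimum of 10 fragments, the median FPKM, a pseudocount of 1 FPKM, depth-scaled counts, stricter names and whole counts alone. PCR copies are not independent molecules.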

Additional observations from a re-analysis of the deposited data

Results flagged for a closer look

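The 7-deoxyloganetin-named gene Ma08_g17340 was higher in low-potassium leaf and lower in low-potassium root, with log2 ratios of 4.26 and -2.32. It was the 1 member listed with opposite directions, and the difference between the tissues was not tested. Its leaf ratio rests on 1 and 19 fragments and its root ratio on 42 and 8. With 1 FPKM added to both values the log2 ratios were 1.86 and -1.71.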

How the results depend on the processing

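All 38 single ratios, 13 in leaf and 25 in root, stayed inside their counting intervals with depth-scaled counts and with 1 FPKM added. Their directions were unchanged, but adding the same amount to both values cannot reverse a direction. Depth was computed from the deposited counts and FPKM, so depth-scaled counts nearly restate the FPKM ratios. Neither is an independent check of direction. No paired analysis was possible because each group has 1 library. Requiring 10 fragments in all changed no count, and adding the genes with a glucosyltransferase name in KEGG alone, chosen after seeing the data, gave 13 higher and 13 lower in root. Keeping members at or above the median FPKM of listed genes left 7 higher and 0 lower in leaf and 8 higher and 6 lower in root, with 2 and 6 at least 4-fold apart, and the root median log2 ratio reversed to 1.09; fewer members are counted there. With 1 FPKM added, 2 leaf and 8 root members were at least 4-fold apart. Names holding UDP-glycosyltransferase or UDP-glucosyltransferase alone gave 3 higher and 1 lower in leaf, 1 higher and 4 lower in root, 2 and 3 at least 4-fold apart, summed ratios of 2.86 and 0.367 and a root median of -2.12, and no gene in both tissues, so the shared direction could not be computed. Members with whole counts were 8 higher and 0 lower in leaf and 6 higher and 11 lower in root, with 3 leaf members at least 4-fold apart, a root median of -2.12 and a root sum ratio of 0.650. Without the most abundant member the root sum ratio was 0.884. Counts of 1 to 3 fragments limit the ratios of Ma08_g17340 and Ma04_g26850 in leaf. Without endo-1,3 enzymes the beta-glucosidase list held 2 higher in leaf and 3 higher and 6 lower in root.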

Other observations

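The protein name used to choose members misses at least 1 gene that another annotation calls a UDP-glycosyltransferase. Ma10_g07470, whose best protein match is named a peroxisome proliferator-activated receptor gamma coactivator-related protein, has UGT73C as its first KEGG match. It measured 6.97 and 25.8 FPKM in root, 3.70-fold higher in low potassium. Listed genes within 5 locus numbers of a member were picked here after their values were seen. Ma08_g13050, beside the UGT 86A1-named gene Ma08_g13040, is named 4-coumarate--CoA ligase-like 1, close to the name of a phenylpropanoid enzyme. It measured 40.6 and 128 FPKM in root, 3.16-fold higher, beside 3.94-fold higher for Ma08_g13040. The neighbour on the other side, a high-affinity nitrate transporter 2.1-like gene (Ma08_g13030), had the opposite direction, with 173 and 43.9 FPKM, 3.93-fold lower. Between the lower genes Ma04_g26820 and Ma04_g26800 lies the transcription factor gene MYB44-like (Ma04_g26810), with the opposite direction, 2.43-fold higher in root (74.6 and 181 FPKM) and 2.48-fold higher in leaf (30.1 and 74.9 FPKM). What joins these neighbours was not tested.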
